A study of Homo sapiens with 4 samples.

Results

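The genes described are 10 long noncoding RNAs of human cells: 8 host genes of small nucleolar RNAs (snoRNAs), namely GAS5, SNHG1, SNHG3, SNHG5, SNHG6, SNHG7, SNHG8 and SNHG12, and the nuclear RNAs MALAT1 and NEAT1. They were chosen by name from the 25066 genes of the deposited expression values. Of the 10, 9 were found under their own symbols, and NEAT1 was found under its older symbol NCRNA00084 by its Entrez number, 283131. RNA sequencing was done on NUDUL1, a cell line from a diffuse large B cell lymphoma of the germinal center B cell (GCB) type. The cells carried doxycycline-inducible Cas9 and the transduced thromboxane receptor Tbxa2r, and expressed either a control sgRNA or an sgRNA against GNA13, the gene of the G protein subunit Gα13. Both genotypes were treated with 10 nM U46619, a stable thromboxane-A2 analog that activates Gα13 through Tbxa2r, for 24 h, and 2 libraries were sequenced per genotype. No untreated library was compared, and a single line with 1 sgRNA per genotype was used, so the effects of the guide and of the gene cannot be told apart.

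Each library held between 29209544 and 31537955 mapped reads, and 1 read was worth about 1 unit on the linear scale of the normalized values. GNA13 mRNA, the transcript of the targeted gene, was not lower under the GNA13-deficient label, with log2 values of 12.46 and 12.45 in the control libraries and 13.10 and 13.11 in the GNA13-deficient libraries. The libraries are therefore named by their labels. B cell markers were present, with CD79B between 14.11 and 14.33. The T cell genes CD3D, CD3E and CD2 and the erythroid gene HBB were listed at 0 in all 4 libraries. Among germinal center genes, MME lay between 13.993 and 14.075. BCL6 was at 10.75 and 10.895 in control and at 8.232 and 8.441 in GNA13-deficient libraries. The myeloid gene LYZ was at 6.400 and 6.352 in control and at 3.497 and 4.193 in GNA13-deficient libraries, and CSF1R lay between 2.105 and 3.977. Differences are those of log2 normalized reads, GNA13-deficient minus control, from limma with a mean-variance trend, with p adjusted by the Benjamini-Hochberg method over 16945 genes. The sources do not say whether the 2 libraries of a genotype came from separate cultures, so p measures only the spread between these libraries, which may be technical. Values are averages over all cells of a library, so fewer expressing cells and less RNA per cell cannot be told apart.

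A snoRNA host gene is transcribed and spliced like an mRNA, and the snoRNAs are cut from its introns. C/D box snoRNAs guide 2′-O-methylation and H/ACA box snoRNAs guide pseudouridylation, mostly of ribosomal RNA, while the spliced exons of many noncoding hosts reach the cytoplasm and are broken down by nonsense-mediated decay during translation. Many hosts begin with a 5′ terminal oligopyrimidine (TOP) tract, a C followed by an unbroken stretch of C and T, which ties the stability and translation of such RNAs to growth and mTOR signaling. MALAT1 is retained in nuclear speckles, which are stores of splicing factors, and NEAT1 is the scaffold of paraspeckles. The 3′ ends of MALAT1 and of the long form of NEAT1 are cut by RNase P and carry a triple helix in place of a poly(A) tail, whereas the short form of NEAT1 is polyadenylated. The libraries were made by poly(A) selection, and the values do not separate the forms of a gene.

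The starts of 7 hosts are shown because the TOP tract is the sequence feature by which many hosts are known. Each line gives 10 bases before the RefSeq start and 20 bases from it, 5′ to 3′ on the gene's strand, with the unbroken C or T run that holds the start base in capitals (build GRCh38.p14).
SNHG12, chr1:28581854-28581883, minus strand: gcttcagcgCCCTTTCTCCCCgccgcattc
SNHG8, chr4:118278752-118278781, plus strand: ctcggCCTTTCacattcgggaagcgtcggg
SNHG5, chr6:85678714-85678743, minus strand: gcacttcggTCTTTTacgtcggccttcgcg
SNHG7, chr9:136728165-136728194, minus strand: ccttctcgTCCTCTgcgtgcgccggaggct
SNHG1, chr11:62855866-62855895, minus strand: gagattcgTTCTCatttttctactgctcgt
SNHG3, chr1:28505933-28505962, plus strand: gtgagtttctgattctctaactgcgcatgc
GAS5, chr1:173869026-173869055, minus strand: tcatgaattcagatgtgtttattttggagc
A C or T run of 5 or more bases held the start in 5 of these 7 hosts (71.4%), against 9.60% of 35116 RefSeq starts. These runs also count bases before the start, which are not in the RNA, so they are not TOP tracts as defined above. From the start base on, the run held 11 bases in SNHG12 and 5 in SNHG5. It held only 4 in SNHG7, 3 in SNHG1 and 1 in SNHG8. The base at the start was C in 5 of the 7, against 14.7% of all starts. For SNHG3 and GAS5 the base at the start chosen by RefSeq lay in no such run, and runs elsewhere in the window were not counted. Other starts of a host were not examined, and GAS5 has 91 transcripts in the GENCODE annotation. Its window may therefore not hold its main start. The palindromic letters CACGTG, an E-box of the kind bound by MYC, were present in the 300 bases around the start of SNHG7 and in 7.26% of all windows of that length.

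In the GRCh37 build used for the alignment, GAS5 lies at chr1:173827697-173838020 on the minus strand, with 12 exons in its canonical GENCODE transcript. SNHG12 (chr1:28905050-28909644, minus, 6 exons) and SNHG3 (chr1:28832492-28837404, plus, 3 exons) lie close to each other on the same chromosome. SNHG1 is at chr11:62619450-62623425 (minus, 11 exons), SNHG5 at chr6:86360209-86388650 (minus, 6 exons), SNHG7 at chr9:139615818-139622636 (minus, 6 exons) and SNHG8 at chr4:119199858-119206471 (plus, 3 exons). NEAT1 (chr11:65190245-65213011, plus) and MALAT1 (chr11:65265111-65275544, plus) are neighbours, each with 1 exon in its canonical transcript.

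Of the 10 RNAs, GAS5, SNHG6, SNHG7 and NEAT1 were lower in the GNA13-deficient libraries at an adjusted p under 0.05 in limma. No member was called higher by limma or by voom on recovered reads, and the count of higher members at an unadjusted p under 0.05 was also 0. Over all genes tested, 29.7% were called, 16.6% lower and 13.1% higher, so a call in this comparison was common. The difference was below 0 for 9 of the 10, with a median of -0.25, beside -0.02 for all genes. Leaving out control replicate 2 gave a median of -0.60, and leaving out replicate 1 of the GNA13-deficient libraries gave -0.55. With each library centred on its median, which moved the median of all genes to 0.18, the median of the 10 was -0.04, and with centring on GAPDH, ACTB and TBP, which moved it to -0.38, the median of the 10 was -0.60. GAS5 was called in every fit to all 4 libraries, whereas the calls of SNHG6, SNHG7 and NEAT1 were lost without the filter on low values and without the variance trend, and no gene was called when any library was left out, with 1 residual degree of freedom. The genotypes did not overlap, with GNA13-deficient lower, for 5 of the 10, against 34% of all genes tested, and with GNA13-deficient higher for 0 of the 10, against 31.3% of all genes.

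**Figure D1:**
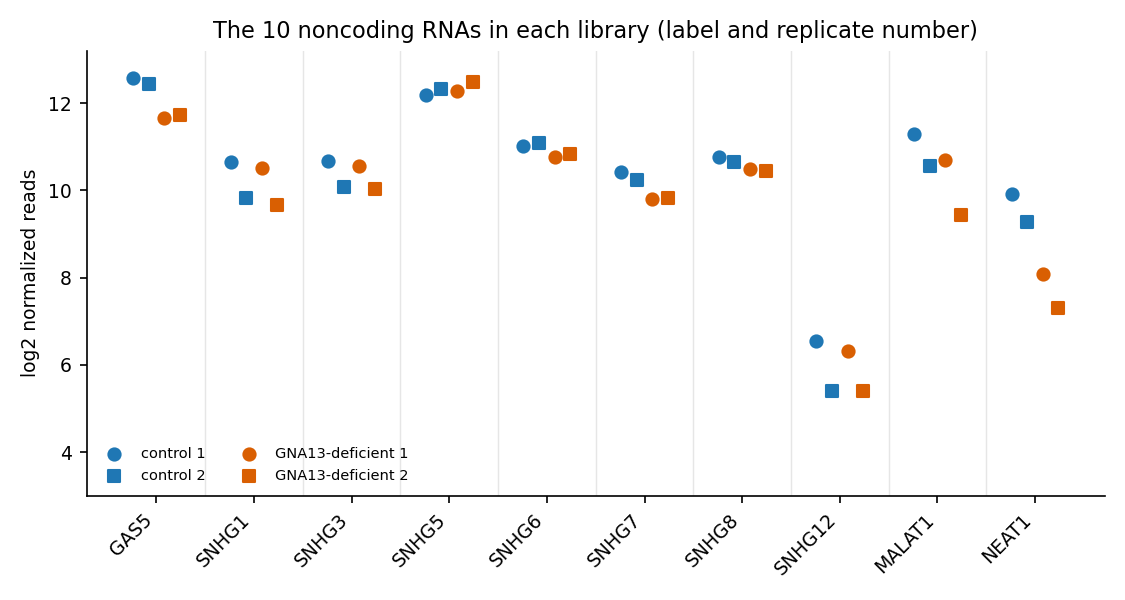
Log2 normalized reads (vertical axis) of the 10 noncoding RNAs, 1 point per library, blue for control and orange for GNA13-deficient, circles for replicate 1 and squares for replicate 2. GAS5 and NEAT1 separate by color, while SNHG1, SNHG3 and SNHG12 separate by shape.

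GAS5, a host of C/D box snoRNAs whose spliced RNA accumulates when translation or growth slows, had log2 values of 12.56 and 12.45 in control and 11.66 and 11.73 in GNA13-deficient libraries. Both GNA13-deficient libraries lay well under both control libraries, and each genotype's libraries were close to each other. GAS5 fell by 0.81 on the log2 scale (SE 0.065, 95% interval -0.98 to -0.64, adjusted p = 0.00224 from limma), which is 42.9% lower on the linear scale. The depth behind these values was 5951 and 5679 reads in control and 3158 and 3167 reads in GNA13-deficient libraries.

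SNHG7, host of a pair of H/ACA snoRNAs, had log2 values of 10.43 and 10.23 in control and 9.80 and 9.81 in GNA13-deficient libraries. It fell by 0.52 (SE 0.085, adjusted p = 0.0123 from limma), or 30.4% on the linear scale. SNHG6, host of the C/D box snoRNA SNORD87, had values of 11.03 and 11.09 in control and 10.77 and 10.82 in GNA13-deficient libraries. The difference of -0.26 (SE 0.056, adjusted p = 0.0275 from limma) was the smallest of the 4 called, 16.5% on the linear scale, and its call was lost when each library was centred on its median (-0.05, adjusted p = 0.607).

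SNHG8 lay between 10.64 and 10.76 in control and between 10.45 and 10.49 in GNA13-deficient libraries. The genotypes did not overlap, but the difference of -0.23 (SE 0.065, interval -0.40 to -0.06) did not pass the adjusted threshold (adjusted p = 0.0540, limma). Centring on library medians gave -0.03 (adjusted p = 0.762, limma), while SNHG8 was called under quantile normalization (-0.25, adjusted p = 0.0462, limma) and under centring on GAPDH, ACTB and TBP (-0.59, adjusted p = 0.00625, limma). SNHG5, a host of C/D box snoRNAs, was the only 1 of the 10 with a difference above 0. Its values were 12.19 and 12.31 in control and 12.29 and 12.48 in GNA13-deficient libraries, which overlapped (0.13, SE 0.089, interval -0.10 to 0.36, adjusted p = 0.33, limma). A rise of up to 0.36 and a fall of up to 0.10 are thus both within the interval for SNHG5, and centring on GAPDH, ACTB and TBP turned the difference to -0.23 (adjusted p = 0.0489, limma).

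NEAT1 had log2 values of 9.92 and 9.28 in control and 8.09 and 7.31 in GNA13-deficient libraries. Although the libraries of each genotype differed by 0.64 and 0.79, the higher GNA13-deficient library was still below the lower control library. NEAT1 fell by 1.90 (SE 0.335, interval -2.76 to -1.03, adjusted p = 0.0155, limma), which is 73.2% lower on the linear scale and the largest difference of the 10. It rested on 950 and 630 reads in control and 266 and 147 reads in GNA13-deficient libraries.

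MALAT1 had values of 11.30 and 10.56 in control and 10.69 and 9.43 in GNA13-deficient libraries. The genotypes overlapped, since replicate 1 of the GNA13-deficient libraries lay above replicate 2 of control. Its difference of -0.87 had an SE of 0.470 and an interval from -2.09 to 0.35, and was not called (adjusted p = 0.236, limma). A fall as large as that of NEAT1 and a small rise are both inside this interval. With 1 library left out the difference ran from -1.50 without GNA13-deficient replicate 1 to -0.24 without GNA13-deficient replicate 2, and MALAT1 was called when only genes at or above the median level were tested (adjusted p = 0.0484, limma).

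**Figure D2:**
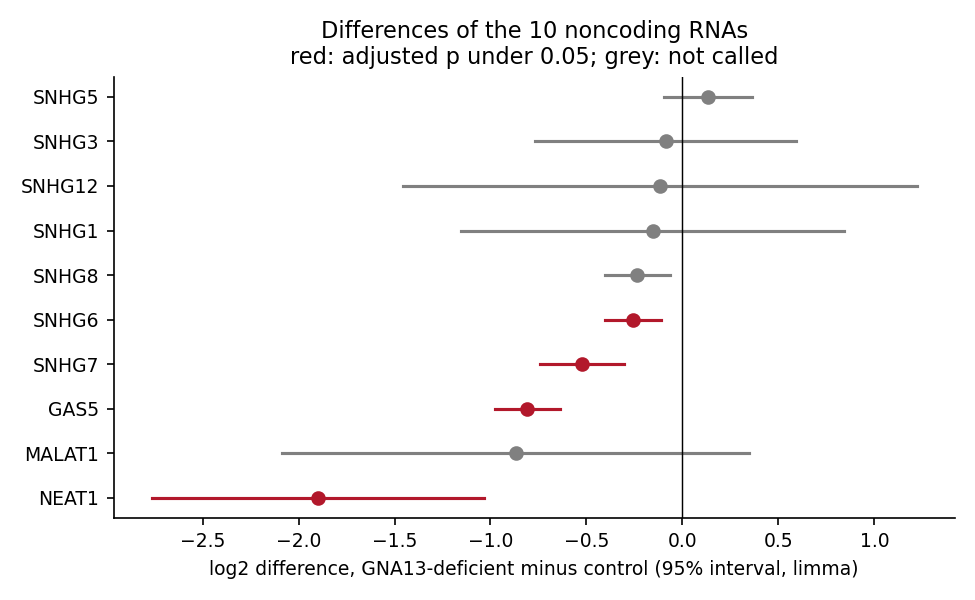
Log2 difference, GNA13-deficient minus control (horizontal axis), with its 95% limma interval for each of the 10 noncoding RNAs, red where the adjusted p was under 0.05. Intervals of GAS5, SNHG6, SNHG7 and NEAT1 are red and lie below 0, and those of SNHG12, MALAT1 and SNHG1 are the widest of the grey ones.

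The other 3 hosts differed more between libraries of one genotype than between genotypes. SNHG1, whose introns hold C/D box snoRNAs, had values of 10.66 and 9.83 in control and 10.51 and 9.66 in GNA13-deficient libraries. Replicate 1 thus lay above replicate 2 by 0.84 in control and by 0.85 in GNA13-deficient libraries, while the difference between genotypes was -0.15 (SE 0.385, interval -1.15 to 0.84, adjusted p = 0.808, limma). SNHG3, host of the H/ACA snoRNAs SNORA73A and SNORA73B, had values of 10.68 and 10.08 in control and 10.56 and 10.03 in GNA13-deficient libraries. Its replicates differed by 0.60 and 0.53, and its genotypes by -0.09 (SE 0.262, adjusted p = 0.844, limma).

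SNHG12 had the fewest reads of the 10, with 92 and 43 reads in control and 78 and 39 reads in GNA13-deficient libraries. Its log2 values were 6.55 and 5.40 in control and 6.32 and 5.39 in GNA13-deficient libraries, again high in both libraries numbered 1 and low in both numbered 2. The difference between genotypes was -0.12 (SE 0.517, interval -1.46 to 1.22, adjusted p = 0.902, limma), so a log2 change of 1 in either direction lies within the interval and was not detectable at this depth and spread.

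Counted across the 10, SNHG1, SNHG3, SNHG12, MALAT1 and NEAT1 lay at least 0.5 higher in library 1 than in library 2 of both genotypes. The limit of 0.5 was set after these values had been seen. Of all genes tested, 4.65% met it, and 1.64% lay at least 0.5 higher in library 2 of both genotypes. Among the 8473 genes with a mean log2 value at or above the median of 8.13, only 14 genes (0.165%) met it, and 4 of those 14 were SNHG1, SNHG3, MALAT1 and NEAT1. The other 10 were CCNL1, HERC2P2, HNRNPA3P1, MAPK8IP3, PILRB, SCARNA9 and 4 entries with LOC names, all named here after their values were seen. The remaining hosts did not share this: library 1 minus library 2 was 0.12 and -0.07 for GAS5, -0.13 and -0.19 for SNHG5, -0.06 and -0.05 for SNHG6, 0.20 and -0.01 for SNHG7, and 0.12 and 0.04 for SNHG8.

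**Figure D3:**
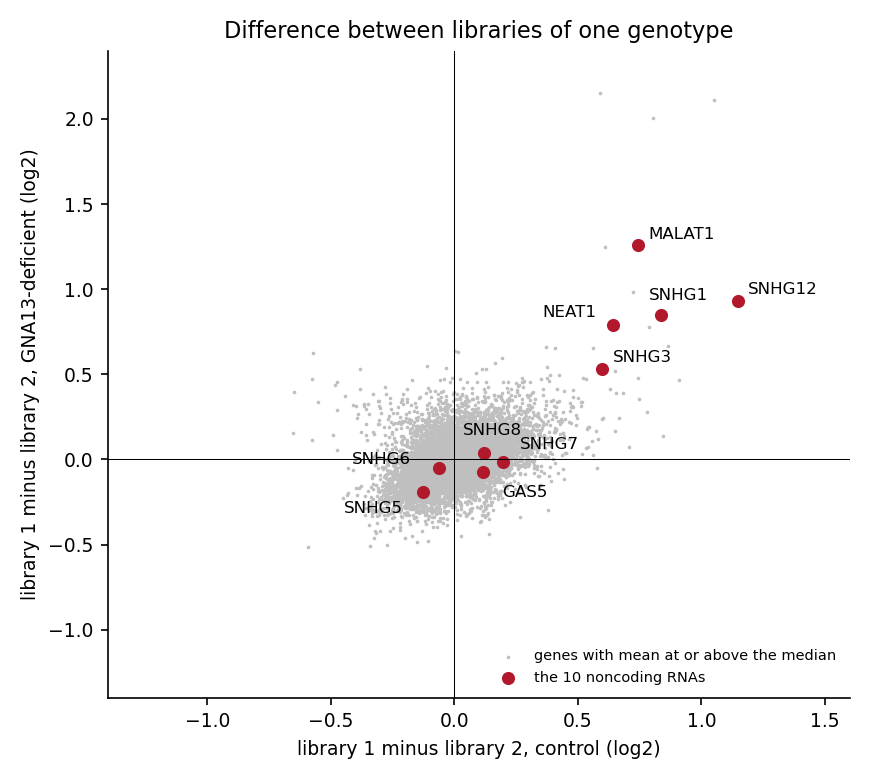
Log2 value of library 1 minus library 2 in control (horizontal axis) and in GNA13-deficient cells (vertical axis), grey for genes with a mean at or above the median and red for the 10 noncoding RNAs. SNHG1, SNHG3, SNHG12, MALAT1 and NEAT1 lie above 0.5 on both axes, while GAS5, SNHG5, SNHG6, SNHG7 and SNHG8 lie near 0.

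Reads assigned to snoRNAs differed between libraries in the same direction. Over 394 annotated snoRNA genes the reads summed to 4094 and 2372 in control and to 5150 and 3178 in GNA13-deficient libraries, which scaled to total mapped reads is 140 and 75.2 CPM (reads scaled to a total of 1000000) in control and 171 and 107 CPM in GNA13-deficient libraries. Of the 255 snoRNAs tested, 94 lay at least 0.5 higher in library 1 of both genotypes and 7 at least 0.5 higher in library 2 of both, with median gaps of 0.63 and 0.64. These snoRNAs are short and mostly lack a poly(A) tail, so poly(A)-selected libraries hold few of them. The part of library preparation in the gap between same-genotype libraries was not tested.

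The snoRNAs whose own sequences could be read within the hosts are shown with their defining 3′ box in capitals, CTGA (the D box) for C/D snoRNAs and ACA for the H/ACA snoRNA. All 3 lie in introns of the canonical host transcript, with positions in GRCh37.
SNORD78 in GAS5, chr1:173834760-173834824, minus strand: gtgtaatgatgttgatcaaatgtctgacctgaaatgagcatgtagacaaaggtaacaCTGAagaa
SNORD99 in SNHG12, chr1:28905261-28905334, minus strand: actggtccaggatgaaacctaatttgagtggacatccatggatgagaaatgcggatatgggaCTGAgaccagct
SNORA73B in SNHG3, chr1:28835071-28835274, plus strand: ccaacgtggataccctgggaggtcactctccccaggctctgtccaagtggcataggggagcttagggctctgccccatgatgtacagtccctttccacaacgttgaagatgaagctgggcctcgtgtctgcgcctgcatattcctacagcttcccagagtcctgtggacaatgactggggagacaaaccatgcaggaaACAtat
SNORD78 received 19 and 8 reads in control and 22 and 7 reads in GNA13-deficient libraries. SNORA73B received 16 and 11 reads in control and 14 and 5 in GNA13-deficient libraries. For SNORD99 the reads were 4 and 0 in control and 1 and 4 in GNA13-deficient libraries, which is at or near the floor of 3 reads.

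While GAS5 itself fell, reads of the snoRNAs within it overlapped between genotypes, and the difference between host and snoRNAs was not tested. Reads summed over 10 snoRNAs nested in GAS5 were 187 (exact 95% Poisson interval 161 to 216) and 77 (60.8 to 96.2) in control, and 217 (189 to 248) and 126 (105 to 150) in GNA13-deficient libraries. The genotypes overlapped in these sums. Per 1000 reads of GAS5 itself, the snoRNA reads were 31.4 and 13.6 in control and 68.7 and 39.8 in GNA13-deficient libraries, which did not overlap. A permutation test of 2 against 2 libraries cannot go below an exact two-sided p of 0.333, so that test could not pass for this ratio. The intervals cover counting error only.

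For SNHG1, 8 nested snoRNAs summed to 186 and 63 reads in control and 247 and 91 in GNA13-deficient libraries, with both low sums in the libraries numbered 2. Per 1000 reads of SNHG1 these were 117 and 68.3 in control and 173 and 121 in GNA13-deficient libraries, again without overlap. The pair of snoRNAs in SNHG3 summed to 92 and 65 reads in control and 120 and 75 in GNA13-deficient libraries. Over SNHG3 itself the ratio was 57.1 and 59.0 per 1000 in control and 81.6 and 77.4 per 1000 in GNA13-deficient libraries. In SNHG12, 4 snoRNAs summed to 32 and 6 reads in control and 41 and 30 in GNA13-deficient libraries, or 348 and 140 per 1000 reads of SNHG12 in control and 526 and 769 in GNA13-deficient libraries. The snoRNAs of SNHG5, SNHG6 and SNHG8 stayed at 22 reads or fewer, and those of SNHG7 were listed at 0 throughout. Their ratios overlapped between genotypes, at 4.79 and 0.773 against 4.11 and 1.69 per 1000 for SNHG5, 1.46 and 1.81 against 7.04 and 0.594 for SNHG6, and 4.69 and 1.85 against 12.9 and 1.54 for SNHG8.

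Of 30 hosted snoRNAs with values, 26 were tested and limma called 0 in either direction. At an unadjusted p under 0.05 there was 1, and voom on recovered reads called 0. The value was lower in library 2 than in library 1 for 25 of the 30 in control and for 22 of the 30 in GNA13-deficient cells. Summed over the 8 hosts, the snoRNA reads were 530 and 222 in control and 675 and 334 in GNA13-deficient libraries. How the counting assigned reads that lie in both a snoRNA and its host was not given in the sources used here.

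**Figure D4:**
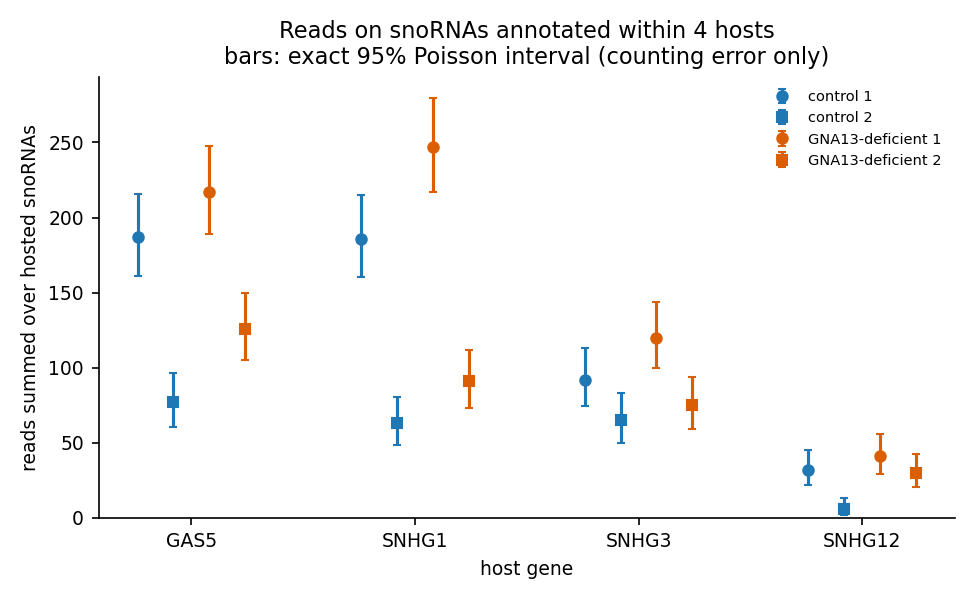
Reads summed over the snoRNAs annotated within GAS5, SNHG1, SNHG3 and SNHG12 (vertical axis, from 0) in each library, with exact 95% Poisson intervals that cover counting error only. For each of these hosts the squares (replicate 2) lie below the circles (replicate 1) in both genotypes.

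Levels were compared between genes only as reads per kilobase of the longest transcript, scaled to mapped reads (RPKM). GAS5 was the highest in control on this scale, at 61.0 ± 5.32 (SD, n = 2), and 33.6 ± 0.43 in GNA13-deficient libraries. SNHG6 followed with 38.5 ± 0.004 in control and 31.1 ± 0.075 in GNA13-deficient libraries, and SNHG5 with 27.9 ± 0.857 and 29.5 ± 2.14. SNHG7 was at 18.0 in control and 12.1 in GNA13-deficient libraries, SNHG3 at 17.2 and 15.6, SNHG1 at 11.1 and 9.64, and SNHG8 at 8.92 and 7.32. MALAT1 had a mean of 6.38 in control and 3.58 in GNA13-deficient libraries, and SNHG12 and NEAT1 were lowest in control at 1.13 and 1.15. Neighbours in this order whose libraries overlapped were SNHG7 with SNHG3, SNHG3 with SNHG1, SNHG1 with SNHG8, and NEAT1 with SNHG12 in control, and SNHG6 with SNHG5, SNHG7 with SNHG1, and SNHG1 with SNHG8 in GNA13-deficient libraries. This order depends on the transcript chosen: with the canonical transcript SNHG5 stood above SNHG6, and SNHG1 above SNHG3 and SNHG7. Each length used for NEAT1, from 22743 to 22767 bases, covers its long form. Its level per kilobase of the short, polyadenylated form was not computed. Capture of MALAT1 and of long NEAT1 by poly(A) selection was not tested, so their places describe these libraries only.

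Genes that overlap a host or share its start region were described because reads of opposite strands can only be told apart if the counting used strand. The library kit marks strand, but the strand setting of the counting was not given in the sources used here. ZBTB37, whose start lies 800 bases from that of GAS5 on the other strand, was between 6.26 and 6.64 in all libraries (difference 0.04, adjusted p = 0.930, limma).

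SLC3A2, the heavy chain of the amino acid transporter CD98, starts 51 bases from SNHG1 in the opposite direction. It rose by 0.30 (SE 0.065, adjusted p = 0.0278, limma), from 12.44 and 12.55 to 12.75 and 12.83, but centring on GAPDH, ACTB and TBP turned it to -0.0595. It was lower in library 1 than in library 2 of both genotypes, the reverse of SNHG1. RCC1, the exchange factor of the GTPase RAN, starts 37 bases from SNHG3 on the same strand, and had 7.79 and 7.90 in control and 8.07 and 8.21 in GNA13-deficient libraries (0.30, adjusted p = 0.125, limma). Reads of the start shared by RCC1 and SNHG3 are uncertain in their assignment.

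DIPK1B, listed under the older symbol FAM69B, overlaps SNHG7 on the opposite strand and had 741 and 791 reads in control and 64 and 68 reads in GNA13-deficient libraries. It fell by 3.47 (SE 0.119, adjusted p = 0.00068, limma), far more than the 0.52 of SNHG7. MCMDC2, opposite SNHG6 and listed as C8orf45, had 7 and 15 reads in control and 30 and 35 in GNA13-deficient libraries, a difference of 1.73 (adjusted p = 0.0491, limma) in the direction opposite to SNHG6, which was not called under centring on GAPDH, ACTB and TBP (adjusted p = 0.0548, limma). TRNAU1AP, opposite SNHG12, differed by 0.19 (adjusted p = 0.304, limma), and PRSS12, opposite SNHG8, had between 2 and 16 reads (0.62, adjusted p = 0.701, limma).

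The related lists are given on the deposited scale, and their directions are relative to it. Counts of calls in each list are to be read beside the shares of all genes, 13.1% called higher and 16.6% lower. Of the 31 list genes that are named below by rule and called, 25 were not called without the filter and 21 without the variance trend. Under centring on GAPDH, ACTB and TBP 14 were not called and 4 changed sign, and under median centring 4 were not called. On the deposited scale GAPDH itself lay at 16.09 and 16.29 in control and at 16.61 and 16.74 in GNA13-deficient libraries. ACTB was higher by 0.37 in GNA13-deficient libraries, so this centring moves other genes down.

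Other noncoding snoRNA hosts went both ways. Of 20 such genes, 11 were tested, 3 were called lower and 1 higher, with a median difference of -0.12 that turned to 0.085 under median centring. EPB41L4A-AS1, host of SNORA13, fell by 1.07 (SE 0.080, adjusted p = 0.0020, limma), from 9.42 in both control libraries to 8.39 and 8.31. SNHG20 fell by 0.54 (SE 0.138, adjusted p = 0.0412, limma), a call lost under quantile normalization (-0.24, adjusted p = 0.250, limma) and under median centring (-0.34, adjusted p = 0.110, limma). SNHG17 rose by 0.60 (SE 0.079, adjusted p = 0.0072, limma), a call lost under centring on GAPDH, ACTB and TBP (0.24, adjusted p = 0.135, limma). The third gene called lower, SNHG29, is named after its values were seen and lay at 14.31 and 14.51 in control and 13.80 and 14.03 in GNA13-deficient libraries.

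Most ribosomal protein genes that host snoRNAs, a group of TOP mRNAs, lay lower by a small amount. All 25 were tested and 24 had a difference below 0, with a median of -0.27, but only RPS12 was called (-0.50, SE 0.101, adjusted p = 0.0226, limma); voom on recovered reads called 16 lower. Over all 16945 genes voom called 3108 lower. The genotypes did not overlap, with GNA13-deficient lower, for 16 of these 25 hosts, against 34% of all genes tested. Under median centring the median shrank to -0.07 and RPS12 was not called (-0.29, adjusted p = 0.135, limma). Of 16 other TOP mRNAs, 14 had a difference below 0, the median was -0.25, and 2 were called: the translation initiation factor subunits EIF3F (-0.43, SE 0.091, adjusted p = 0.0256, limma) and EIF3H (-0.40, SE 0.077, adjusted p = 0.0188, limma). Under median centring this median was -0.044 and neither of the 2 was called. LARP1, which binds TOP mRNAs, differed by -0.17 (adjusted p = 0.210, limma). The 8 noncoding hosts had a median of -0.19, with 3 called lower. Each of these medians is to be read beside that of all genes, -0.02.

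Other protein-coding snoRNA hosts were spread on both sides, with 6 of 25 called higher and 2 lower and a median of 0.18. TCP1, a subunit of the CCT chaperonin, rose by 0.51 (SE 0.072, adjusted p = 0.0082, limma) and the mitochondrial chaperone HSPA9 by 0.43 (SE 0.069, adjusted p = 0.0115, limma), while the helicase gene EIF4A2 fell by 0.75 (SE 0.104, adjusted p = 0.0078, limma). Under centring on GAPDH, ACTB and TBP the median turned to -0.18, and neither TCP1 (0.15, adjusted p = 0.119, limma) nor HSPA9 (0.074, adjusted p = 0.537, limma) was called. Proteins that assemble with snoRNAs lay higher: all 14 tested had a difference above 0, the median was 0.19 and 4 were called. Those 4 were FBL, the methyltransferase of C/D snoRNPs (0.42, SE 0.077, adjusted p = 0.0171, limma), NOP56, a C/D core protein (0.37, SE 0.085, adjusted p = 0.0307, limma), RUVBL2, an assembly factor (0.35, SE 0.085, adjusted p = 0.0372, limma), and DKC1, the pseudouridine synthase of H/ACA snoRNPs (0.25, SE 0.063, adjusted p = 0.0431, limma). When libraries were centred on GAPDH, ACTB and TBP, the median of this list turned to -0.17, DKC1 and RUVBL2 turned to -0.11 and -0.01, and FBL (0.061, adjusted p = 0.465, limma) and NOP56 (0.015, adjusted p = 0.919, limma) were not called.

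Factors of nonsense-mediated decay, the pathway that degrades many spliced host RNAs, were mostly higher, with 7 of 16 called higher, 1 called lower and a median of 0.25, which turned to -0.11 under centring on GAPDH, ACTB and TBP. The exon junction genes MAGOHB (0.60, SE 0.064, adjusted p = 0.0041, limma) and EIF4A3 (0.46, SE 0.062, adjusted p = 0.0076, limma) rose, though neither was called under that centring, and UPF3A fell by 0.66 (SE 0.090, adjusted p = 0.0076, limma). UPF1, the central helicase, differed by 0.21 (SE 0.057) and did not pass (adjusted p = 0.0504, limma).

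Paraspeckle protein genes lay in the direction opposite to NEAT1 on the deposited scale. All 15 had a difference above 0, 7 were called higher, and the median was 0.26, but under centring on GAPDH, ACTB and TBP the median turned to -0.10. NUDT21 (0.53, SE 0.059, adjusted p = 0.0044, limma) and HNRNPH3 (0.44, SE 0.087, adjusted p = 0.0211, limma) rose, as did NONO (0.27, SE 0.066, adjusted p = 0.0377, limma), whereas SFPQ differed by 0.26 and was not called (adjusted p = 0.0530, limma). NONO and SFPQ bind NEAT1 directly, and the same centring turned them to -0.09 and -0.10 and left NUDT21 and HNRNPH3 uncalled. Of 13 nuclear speckle genes, 5 were called higher with a median of 0.22, among them the splicing factors SRSF4 (0.62, SE 0.058, adjusted p = 0.0031, limma), SRSF2 (0.48, SE 0.070, adjusted p = 0.0093, limma) and SRRM1 (0.40, SE 0.066, adjusted p = 0.0132, limma). None of these 3 was called under centring on GAPDH, ACTB and TBP, and the list's median turned to -0.14.

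RNase P and ELAC2 genes, whose products cut the 3′ ends of MALAT1 and NEAT1, had 3 of 11 called higher and a median of 0.15. RPP25 differed by 0.57 (SE 0.155, adjusted p = 0.0495, limma), RPP30 by 0.45 (SE 0.064, adjusted p = 0.0088, limma) and POP7 by 0.28 (SE 0.064, adjusted p = 0.0327, limma). Under centring on GAPDH, ACTB and TBP the median turned to -0.21 and POP7 to -0.08, and neither RPP25 nor RPP30 was called.

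Among 14 other long noncoding RNAs tested, 7 were called lower and 2 higher, with a median of -0.45. MIAT, a nuclear RNA, had values of 7.29 and 7.44 in control and 5.43 and 4.01 in GNA13-deficient libraries, so that it fell by 2.64 (SE 0.499, adjusted p = 0.0185, limma). PVT1, the noncoding neighbour of MYC, fell by 1.26 (SE 0.133, adjusted p = 0.0040, limma). HOTAIR had 4 and 5 reads in control and was listed at 0 in both GNA13-deficient libraries. It passed the filter on low values only through the control libraries, so it could only be called lower. Of the 255 snoRNAs tested, 17 were called higher and 3 lower (6.67% and 1.18%), both under the shares of all genes, 13.1% and 16.6%. Those with the largest differences were SNORD91A, SNORD91B and SNORD116-17. They had at most 1 read in each control library and between 4 and 11 reads in each GNA13-deficient library. These 3 passed the filter on low values only through the GNA13-deficient libraries, so they could only be called higher.

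**Figure D5:**
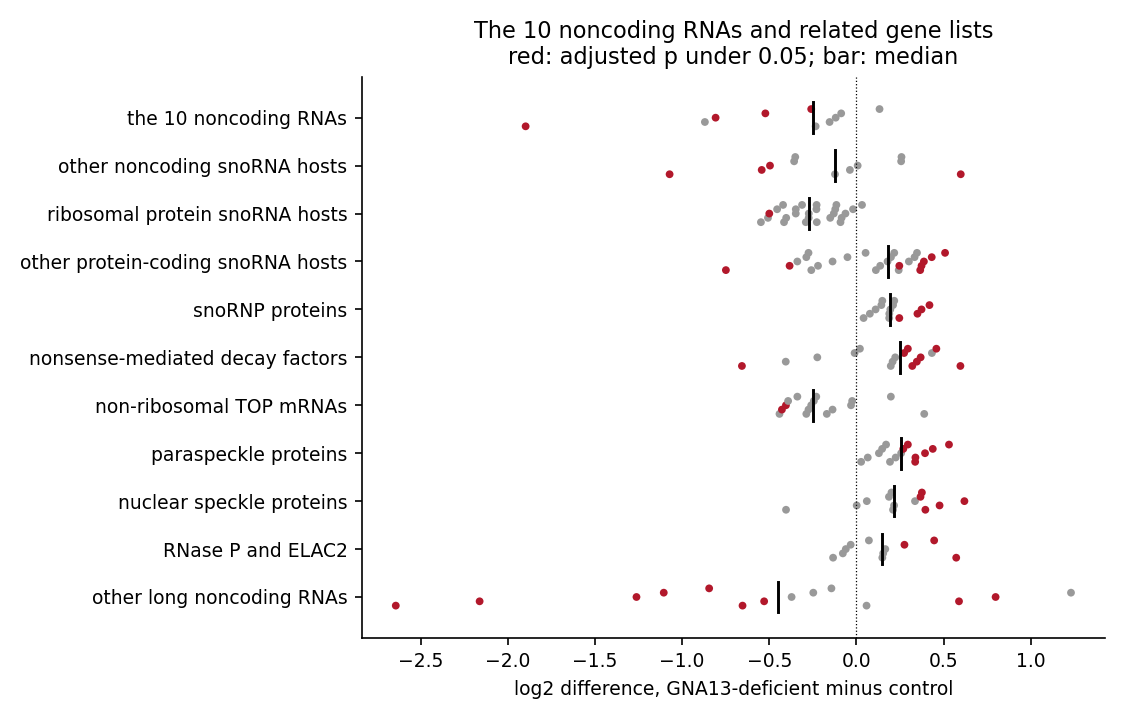
Log2 difference, GNA13-deficient minus control (horizontal axis), of each gene tested in the 10 noncoding RNAs and in 10 related lists, red where the adjusted p was under 0.05, with a black bar at each median. On the deposited scale all 15 paraspeckle genes and all 14 snoRNP genes lie above 0, and 24 of 25 ribosomal protein hosts lie below 0, while centring on GAPDH, ACTB and TBP turned the medians of the first pair of lists below 0.

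Genes with the most similar pattern over the 4 libraries were found by the root mean square distance of log2 values centred on each gene's mean, among 8464 genes with a mean at or above the median. Nearest to the mean of the 8 hosts were PDIA3P1 at a distance of 0.004, RESF1 at 0.018 and ARID4A at 0.023. That mean joins SNHG1, SNHG3 and SNHG12, which lay at least 0.5 higher in library 1 of both genotypes, with hosts that did not. It need not be the pattern of any single host. PILRB (0.104), HERC2P2 (0.117) and MAPK8IP3 (0.224) were nearest to MALAT1, with PILRB at 9.66 and 8.94 in control and 8.99 and 8.01 in GNA13-deficient libraries. NEAT1 had no neighbour as close, with GADD45A at 0.310, the recombinase gene RAG1 at 0.320 and CYTH3 at 0.324. With 4 libraries such likeness is a description only.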

How the data were processed

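RNA was sequenced from 4 libraries of NUDUL1 cells, 2 with control and 2 with GNA13 sgRNA, prepared with a stranded poly(A) kit. Reads were mapped to hg19 by the authors with the STAR aligner, and HTSeq is named in the submitters' processing notes. The deposited values are log2 of normalized reads, with the annotation and the method of normalization not given in the sources used here; values below 0 are listed at 0. A first row of library totals, deposited on a linear scale, gave the depth and entered no fit. Low values stepped in whole reads, which were recovered for the depth, for the floor of 3 reads and for voom.

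Differences were fitted with limma 3.58.1 (R 4.3.3; lmFit, eBayes with trend) on the deposited log2 values, without a pseudocount, over 16945 genes above 0 in at least 2 libraries, with genotype as the only term, Benjamini-Hochberg adjustment and a threshold of 0.05. The steps were tested on simulated data. The 10 genes and the related lists were chosen with earlier results of these data known, and no set test was run. Named genes were the 10 RNAs, the 3 largest called differences per list, LARP1, UPF1, NONO, SFPQ, FBL and DKC1, the neighbours in the annotation (within 5 kb head to head, or overlapping) and the 3 nearest genes by pattern. Some genes that these rules include are not reported here. GENCODE release 44 on GRCh37 gave positions, introns and lengths; the RefSeq table of GRCh38.p14 gave start sequences and which snoRNAs lie within a host. SNHG6 and NEAT1 had no start entry. Alternatives were filters, pseudocounts, scalings, variance models, the replicate block, voom, and leaving out each library, with other transcript lengths for levels. A filter on recovered reads and the canonical length were additions made once the values were known.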

Additional observations from a re-analysis of the deposited data

How the results depend on the processing

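With 2 libraries per genotype the fit has few residual degrees of freedom, and counts of calls moved with the filter, the variance model and the scaling. The median difference of all genes, -0.02, moved to 0.18 under median centring and to -0.38 under centring on GAPDH, ACTB and TBP, so directions near 0 follow the scaling. The cause of each other shift was not tested. Of the 10 RNAs, 4 were called lower, against 1 without the filter and 1 without the variance trend, and 0 to 0 with any library left out. GAS5 was called in each fit to 4 libraries (adjusted p from 1.18e-05 to 0.0347, limma) and had an adjusted p from 0.0754 to 0.0790 with a library left out. SNHG8 was called with the filter at the median (adjusted p = 0.0323), and MALAT1 likewise (0.0484, limma). The median of the 10, -0.25, became -0.60 under centring on GAPDH, ACTB and TBP, became -0.04 under median centring, and ran from -0.60 to -0.23 with a library left out. MALAT1 ran from -1.50 to -0.24 with a library left out.

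Of the 408 list genes tested, each counted once, 19 were called lower and 50 higher. Called lower were 6 without the filter, 32 with the filter at the median, 41 under quantile normalization, 77 under centring on GAPDH, ACTB and TBP, 9 without the variance trend, 29 with a robust variance prior and 42 with voom. Called higher were 10 without the filter, 99 under median centring, 10 under centring on GAPDH, ACTB and TBP and 17 without the variance trend. Both numbers were 0 with any library left out. Over all genes, centring on library medians gave 4311 higher and 1924 lower, and centring on GAPDH, ACTB and TBP gave 678 and 6777. The normalized values as deposited gave 2218 and 2819. Fits without the filter gave 815 and 1184, and without the variance trend 986 and 1732. With the filter at the median, 2229 of 8473 genes were called higher and 1854 lower. Quantile normalization gave 2741 higher and 2547 lower, the robust variance prior 2321 and 2883, and voom 1905 and 3108.

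The labels number the libraries of each genotype without saying that a number marks a shared day or culture. Deviations of same-numbered libraries correlated with r = 0.453 over 8473 genes, with only 2 numbers. With the replicate block, 46 list genes were called lower and 80 higher. Of the 10 RNAs, 6 were called lower, SNHG8 (adjusted p = 0.0211) and MALAT1 (adjusted p = 0.00662) besides the 4, from limma. Calls rose over all 16945 genes too, to 3563 lower and 3053 higher, from 2819 and 2218 without the block.

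Differences between genotypes changed sign as follows. Under median centring they were 0.054 for SNHG1, 0.12 for SNHG3, 0.089 for SNHG12 and 0.038 for LARP1, and under quantile normalization 0.31 for SNHG12. Centring on GAPDH, ACTB and TBP gave -0.23 for SNHG5, -0.11 for DKC1, -0.008 for RUVBL2, -0.15 for UPF1, -0.089 for NONO, -0.10 for SFPQ, -0.0825 for POP7, -0.28 for SNORD78, -0.32 for ZBTB37, -0.0595 for SLC3A2, -0.062 for RCC1, -0.17 for TRNAU1AP and -0.30 for SNORD99, and voom gave -0.0094 for ZBTB37. With 1 library left out, the difference ran from -0.58 to 0.27 for SNHG1, from -0.39 to 0.21 for SNHG3, from -0.69 to 0.45 for SNHG12, from -0.71 to 0.87 for SNORD78, from -0.16 to 0.23 for ZBTB37, from -1.30 to 0.11 for SNORA73B, from -0.85 to 2.08 for PRSS12 and from -0.98 to 1.09 for SNORD99. The median of the 255 snoRNAs ran from -0.006 without control replicate 2 to 0.769 without control replicate 1, beside 0.36, and that of the other long noncoding RNAs from -0.70 without GNA13-deficient replicate 1 to -0.35 without GNA13-deficient replicate 2, beside -0.45. Without control replicate 2 the medians were -0.36 for the other noncoding hosts, -0.16 for the ribosomal protein hosts and -0.14 for the other TOP mRNAs.

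Levels per kilobase, averaged over the 4 libraries, moved with the transcript length. With the union of exons GAS5 went from 47.3 to 30.2, SNHG3 from 16.4 to 10.5, SNHG5 from 28.7 to 13.1, SNHG6 from 34.8 to 25.1, SNHG7 from 15.1 to 7.25 and SNHG12 from 1.05 to 0.493. With the canonical transcript GAS5 was at 194, SNHG1 at 33.6 in place of 10.4, and SNHG5 at 126.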
